A study of Mus musculus with 8 samples.

Results

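Conventional CD4 T cells of mouse lung grafts were taken as the cells that the study's annotation calls T cells, with at least 1 unique molecular identifier (UMI, 1 counted transcript molecule) of Cd4 and none of Cd8a, Cd8b1 or Foxp3. They were chosen by the measured counts of these 4 genes, whose own values are therefore only described. They numbered 563 of 20778 cells (2.71%) and of 5071 T cells (11.1%). The data are single-cell RNA-Seq counts of 8 left lung grafts, each from 1 male recipient 1 month after lung transplantation (LTx), with 10000 cells loaded per graft. All recipients were C57BL/6 (B6) mice and none received immunosuppression. In the 5 control grafts (B6→B6) the donor was also a B6 mouse. In the 3 grafts of the bronchiolitis obliterans syndrome group (BOS, HLA→B6) the donor mice carried the transgene Tg(HLA-A2.1)1Enge, which encodes the human MHC I molecule HLA-A2, and were otherwise C57BL/6, so that donor and host differ by that antigen. The question was how these helper cells differed between rejecting and control grafts and from the other T cells of the same grafts. B6→B6 mice 1 to 5 gave 23, 63, 50, 76 and 17 of the cells, and HLA→B6 mice 1 to 3 gave 195, 112 and 27.

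CD4 T cells read peptides on MHC II through their T cell receptor and act mainly by helping other cells, through CD40 ligand on their surface and through secreted cytokines. Naive cells carry CCR7 and circulate through lymphoid tissue, while cells that have met antigen lose it, enter tissues and can take on Th1, Th2, Th17 or follicular helper (Tfh) programs. Regulatory T cells, which need Foxp3, share the CD4 lineage and restrain these responses, and cells under lasting stimulation put on inhibitory receptors such as PD-1 and LAG-3.

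The rule rests on few molecules. Of the 563 cells, 414 had 1 Cd4 UMI, 106 had 2, and the highest count was 5. Just outside it lay 60 T cells with Cd4 and a single UMI of Cd8a, Cd8b1 or Foxp3, and 1834 T cells had none of the 4 genes. Median depth was 1735 UMIs per cell, between 1452 and 2472 per mouse, and the UMIs summed over a mouse's cells ran from 41880 to 311038. Cd4 was found in 17.4% of all T cells, in 8.74% of myeloid cells and in 0% to 1.24% of the other annotated types. Of the markers of T cells, Cd3e was in 80.6% and Trac in 82.1% of the cells. The annotation as T cells came from expression in the same data, so these shares describe the cells and do not check the label. Cd79a of B cells was in 0.533%, Lyz2 of myeloid cells in 2.66% and Trdc of γδ T cells in 1.95%.

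B6→B6 mouse 4 stood apart. All 954 cells of the authors' T cell cluster 7 came from it (median 831.5 UMIs), 257 of them held both Cd4 and Cd8, and 28 of the 76 conventional CD4 T cells of that mouse lay in this cluster. Rag1 and Dntt, which cut and extend T cell receptor genes while they are assembled, were found in 46.8% and 50.2% of cluster 7 and in 0% and 0.340% of the other 4117 T cells. Of the 28 cells in the cluster that met the rule, 0 had Rag1 and 2 had Dntt. The club cell gene Scgb1a1, which T cells should lack, was in 27 of the 76 cells of this mouse and in 0 to 8 cells of the others. Results are therefore also given without this mouse and, as an alternative added after the data were seen, without cluster 7. B6→B6 mice 1, 2 and 3 and HLA→B6 mouse 2 shared more cell barcodes than unrelated libraries would (B6→B6 mouse 2 and HLA→B6 mouse 2, for example, 160 against 6.03 for random barcodes). Of the conventional CD4 T cells, 22 had a barcode found in more than 1 library, whichever the libraries, and 20 were left out in the alternative without shared barcodes. In these cells, mitochondrial genes took 1.31% to 3.05% of the UMIs, the highest share being in HLA→B6 mouse 3. Ribosomal protein genes took 29.1%, 29.9%, 27.4%, 31.3% and 36.5% in B6→B6 mice 1 to 5 and 25.2%, 27.3% and 26.7% in HLA→B6 mice 1 to 3, lower in every HLA→B6 graft than in every B6→B6 graft. This share thus moved with the groups compared below, and its part in the results was not tested.

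**Figure D1:**
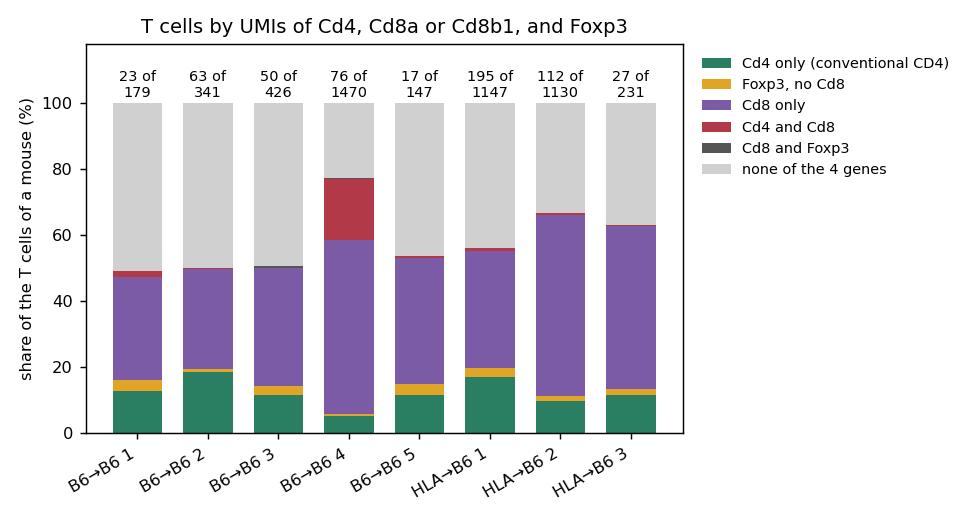
Share of the T cells of each mouse (%, y axis) by which of Cd4, Cd8a or Cd8b1, and Foxp3 had a UMI, with the number of conventional CD4 T cells of all T cells above each bar. Cells with both Cd4 and Cd8 made up 18.4% of T cells in B6→B6 mouse 4 and at most 1.68% in the other mice.

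Conventional CD4 cells had similar mean shares of the T cells in both groups, and no difference was detectable with these numbers of mice. They made up 12.8%, 18.5%, 11.7%, 5.17% and 11.6% in B6→B6 mice 1 to 5 and 17%, 9.91% and 11.7% in HLA→B6 mice 1 to 3. The lowest share was that of B6→B6 mouse 4, the highest that of B6→B6 mouse 2, and the groups overlapped. The means were 12% ± 4.73 (SD, n = 5) and 12.9% ± 3.69 (SD, n = 3), an HLA→B6 minus B6→B6 difference of 0.908 percentage points (exact permutation p = 0.893, two-sided, adjusted over 3 shares compared 0.893). Without cluster 7 the share of B6→B6 mouse 4 was 9.30% and the difference 0.0812 points (exact permutation p = 0.964). With 5 mice against 3 the smallest p this test can give is 0.0357. The share counts only cells in which a Cd4 UMI was caught. T cells with none of the 4 genes, whose class is not known, had means of 43.8% in B6→B6 and 37.9% in HLA→B6 (exact permutation p = 0.464, unadjusted). Without cluster 7 these means were 48.1% and 37.9% (exact permutation p = 0.0357, unadjusted).

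Gene levels were compared between the groups on counts summed over the cells of each mouse. Levels are given as CPM, counts scaled to the library total with TMM factors. In such sums, more cells with a transcript and more of it per cell cannot be told apart. Of 1925 genes with enough counts, 11 were higher in HLA→B6 by edgeR's quasi-likelihood test (0.571% of the genes tested) and 0 were lower, with 106 higher and 63 lower at an unadjusted p under 0.05. DESeq2 called 9 higher and 2 lower, Bcl2 and Klf2. By the lists used here, 3 of the 11 are on that of inhibitory receptors and their regulators (Pdcd1, Lag3 and Tox) and 2 on that of costimulation and the TNF family (Tnfrsf4 and Tnfrsf18). In the order of their change these were Pdcd1, Lag3, Tnfrsf4, Eea1, Hif1a, Tox, Tbc1d4, Tnfrsf18, Ly6a, AW112010 and 2310001H17Rik. In all 11, every HLA→B6 graft was above every B6→B6 graft, which held for 4% of all tested genes. Without cluster 7, edgeR called 11 genes higher and 3 lower, 9 of them among the 11, and without B6→B6 mouse 4 altogether it called 10, with 8 of the 11. The count moved with single mice, to 3 without HLA→B6 mouse 1, 6 without HLA→B6 mouse 3, 7 without HLA→B6 mouse 2 or B6→B6 mouse 1, and 21 without B6→B6 mouse 3. Pdcd1 and Tnfrsf4 passed in all 20 alternatives run, and Lag3 in 18 of the 19 in which it had enough counts to be tested. Hif1a passed in 16 of 19, Tnfrsf18 in 16 of 20, AW112010 in 14 of 20 and Ly6a in 13 of 20, and none of these 4 passed without HLA→B6 mouse 1.

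**Figure D2:**
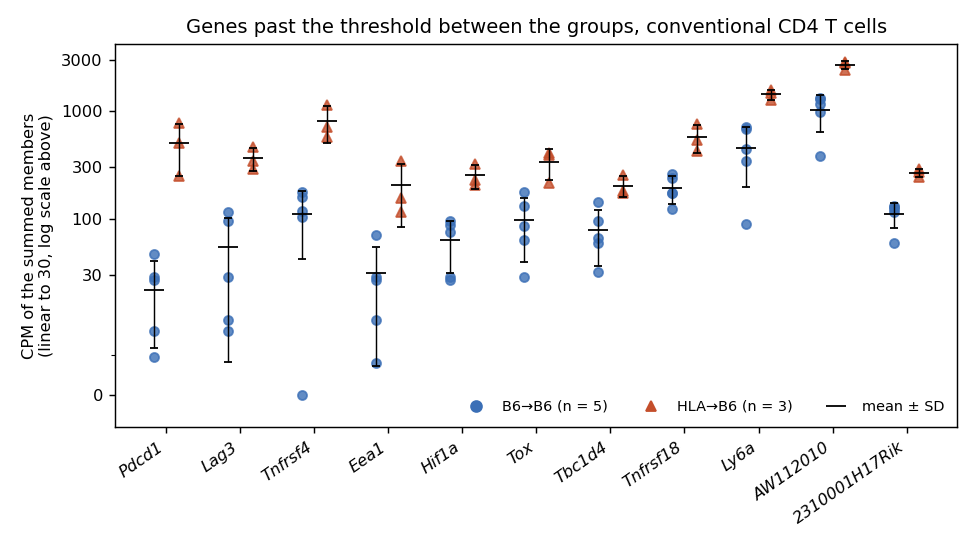
CPM (y axis, linear to 30 and logarithmic above) of the 11 genes past the threshold, 1 point per mouse, with mean and SD of B6→B6 (circles, n = 5) and HLA→B6 (triangles, n = 3). For each gene the 3 HLA→B6 points lie above all 5 B6→B6 points, with the widest gap for Pdcd1.

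Pdcd1 encodes PD-1, the inhibitory receptor that dampens T cell receptor signals after repeated stimulation (chromosome 1, 94038305 to 94052553 on GRCm38, minus strand). It stood at 28.9, 16, 47.5, 9.43 and 29.7 CPM in B6→B6 mice 1 to 5 and 768, 502 and 251 CPM in HLA→B6 mice 1 to 3. The groups lay far apart, B6→B6 mouse 4 being lowest and HLA→B6 mouse 1 highest. The change was 22-fold (log2 fold change 4.46 ± 0.44 (SE), adjusted p = 1.69e-05). A Pdcd1 UMI was found in 1, 2, 3, 1 and 1 cells of B6→B6 mice 1 to 5 and 84, 40 and 7 cells of HLA→B6 mice 1 to 3. Pooled, these were 8 of 229 and 131 of 334 cells, or 3.49% (95% exact binomial interval 1.52% to 6.77%) and 39.2% (34% to 44.7%), intervals that cover counting error only. B cells, which served as a type low in this transcript and had a median depth of 1597.5 UMIs, had it in 0.481%.

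2 other inhibitory genes rose by less. Lag3, whose product binds MHC II and holds back CD4 T cells, lies next to Cd4 on chromosome 6 (124904361 to 124911705, 16139 bases from the Cd4 gene). It stood at 116, 16, 95, 18.9 and 29.7 CPM in B6→B6 mice 1 to 5 and 289, 466 and 343 CPM in HLA→B6 mice 1 to 3. B6→B6 mouse 1 came nearest to the HLA→B6 range without entering it (log2 fold change 2.99 ± 0.41 (SE), adjusted p = 0.000803). Tox, a nuclear factor of T cells under lasting stimulation, was at 86.7, 63.8, 131, 179 and 29.7 CPM in B6→B6 mice 1 to 5 and 408, 215 and 388 CPM in HLA→B6 mice 1 to 3 (log2 fold change 1.60 ± 0.35 (SE), adjusted p = 0.048). The gap between B6→B6 mouse 4 and HLA→B6 mouse 2 was small, and Tox passed in 11 of 20 alternatives. Of 12 listed inhibitory receptors and their regulators, 6 had enough counts and 3 rose, against 0.571% of all tested genes. The other 3 did not pass: Ctla4, a competitor of CD28, had a log2 fold change of 1.29 ± 0.36 (edgeR adjusted p = 0.148), Cd200 of 1.25 ± 0.59 and Cd5 of -0.23 ± 0.25. Tigit was found in 3 B6→B6 and 17 HLA→B6 cells and Havcr2 (TIM-3) in 0 of 229 and 3 of 334, too few for the test. A count of 0 in 229 cells, pooled over mice, allows a share of cells with a UMI of up to 1.31%, which does not limit the share of cells that express the gene.

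Tnfrsf4 and Tnfrsf18 encode OX40 and GITR, costimulatory receptors of the TNF receptor family that appear on activated CD4 T cells and are carried by regulatory T cells. They are neighbours on chromosome 4, at 156013843 to 156016612 and 156026164 to 156028895, 9551 bases apart on the plus strand. Tnfrsf4 was at 0, 104, 119, 160.3 and 178 CPM in B6→B6 mice 1 to 5 and 705, 571 and 1142 CPM in HLA→B6 mice 1 to 3. It was not counted in B6→B6 mouse 1, and each HLA→B6 graft was well above each B6→B6 graft, a 6.49-fold difference (log2 fold change 2.70 ± 0.37 (SE), adjusted p = 0.000803). Tnfrsf18 was at 173, 175, 261, 123 and 237 CPM in B6→B6 mice 1 to 5 and 542, 429 and 754 CPM in HLA→B6 mice 1 to 3 (log2 fold change 1.54 ± 0.29 (SE), adjusted p = 0.0186). It was present in all grafts, and the groups did not overlap. Of the 9 tested genes of costimulation and the TNF family these 2 rose, against 0.571% of all tested genes. Among the rest, Tnfsf8 (CD30 ligand) had a log2 fold change of 1.20 ± 0.35 (edgeR adjusted p = 0.193), Icos of 0.18 ± 0.31 and Cd40lg, the CD40 ligand, of -0.67 ± 0.29, and none of these passed.

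The stretches of 250 bases before the start sites of the 2 receptor genes that passed in every alternative are shown as the promoter context of the changed transcripts (RefSeq, GRCm38.p6, read in the direction of the gene, with Pdcd1 at chr1:94052554-94052803 on the minus strand and Tnfrsf4 at chr4:156013445-156013694 on the plus strand). The RefSeq start of Tnfrsf4 lies ahead of the GENCODE start given above. Capitals mark GGAAA or its reverse complement TTTCC, the core that NFAT factors recognise downstream of the T cell receptor.
Pdcd1: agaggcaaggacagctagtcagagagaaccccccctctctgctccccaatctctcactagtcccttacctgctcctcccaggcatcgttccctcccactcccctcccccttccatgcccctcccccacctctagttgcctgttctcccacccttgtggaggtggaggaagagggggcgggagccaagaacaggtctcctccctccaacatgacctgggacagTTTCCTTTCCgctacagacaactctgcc
Tnfrsf4: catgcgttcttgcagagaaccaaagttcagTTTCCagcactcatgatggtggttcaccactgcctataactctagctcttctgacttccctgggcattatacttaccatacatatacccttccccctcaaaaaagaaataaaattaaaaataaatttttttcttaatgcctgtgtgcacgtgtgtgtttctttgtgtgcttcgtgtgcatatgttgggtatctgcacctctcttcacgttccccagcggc
The core occurs 2 times before Pdcd1, as a tandem pair near the start site, and 1 time before Tnfrsf4. It occurs in 55.6% of the 32851 RefSeq promoters read over the same length, so a match says little by itself. The AP-1 motif TGANTCA, which reads the same on both strands, is in neither window and in 6.75% of all. Of the 11 genes, 8 have an entry in that table.

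Hif1a, the oxygen-regulated subunit of the hypoxia-inducible factor, which also responds to T cell receptor signals, was at 28.9, 87.7, 95, 75.4 and 29.7 CPM in B6→B6 mice 1 to 5 and 323, 230.3 and 206 CPM in HLA→B6 mice 1 to 3. The groups were well apart, with the top B6→B6 graft, mouse 3, far under HLA→B6 mouse 3 (log2 fold change 1.83 ± 0.31 (SE), adjusted p = 0.00664). Ly6a (Sca-1), an interferon-responsive surface protein of activated T cells, was at 347, 678, 713, 443 and 89 CPM in B6→B6 mice 1 to 5 and 1558, 1261 and 1462 CPM in HLA→B6 mice 1 to 3 (log2 fold change 1.53 ± 0.32 (SE), adjusted p = 0.0404), with B6→B6 mouse 5 lowest. The long noncoding RNA AW112010 was at 983, 1292, 1318, 387 and 1157 CPM in B6→B6 mice 1 to 5 and 2797, 2847 and 2398 CPM in HLA→B6 mice 1 to 3 (log2 fold change 1.40 ± 0.28 (SE), adjusted p = 0.0315), and the lowest value was that of B6→B6 mouse 4. Tbc1d4, a Rab GTPase-activating protein of vesicle traffic, Eea1, an early endosome tether, and the noncoding 2310001H17Rik passed close to the threshold, with log2 fold changes of 1.60, 2.51 and 1.16 and edgeR adjusted p = 0.048, 0.0479 and 0.048. They passed in 8 of 20, 7 of 14 and 4 of 20 alternatives.

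Genes of naive and recirculating cells all had fold changes below 0, and none passed alone. Of 15 listed genes 13 had enough counts, and edgeR called 0 of them, with 8 lower at an unadjusted p under 0.05. DESeq2 called 1 of them lower and edgeR without cluster 7 also 1, which was Klf2 in both. All 13 fold changes were below 0 (52.4% over all tested genes), with a median log2 fold change of -0.68 against -0.02 over all tested genes, and all were below 0 in the 12 still tested without cluster 7 (median -0.75). Klf2, the factor that keeps S1pr1 switched on, was at 3959.5, 1803, 1948, 1179 and 3501 CPM in B6→B6 mice 1 to 5 and 701, 1162 and 1210.5 CPM in HLA→B6 mice 1 to 3 (log2 fold change -1.26 ± 0.34, edgeR adjusted p = 0.123). B6→B6 mouse 4 fell within the HLA→B6 range, and without cluster 7 Klf2 passed (log2 fold change -1.30, adjusted p = 0.0363). Satb1, a chromatin organiser, had a log2 fold change of -1.58 ± 0.46, Ccr7 of -0.59 ± 0.30, Tcf7 (TCF-1) of -0.57 ± 0.26 and Lef1 of -0.66 ± 0.31, and none of these passed. The summed level of the 15 genes ran from 2627 to 3580.0 CPM in HLA→B6 and from 4466 to 8071 CPM in B6→B6, without overlap. Such a gap was not particular to this list. The sums of the inhibitory receptor, regulatory T cell, Tfh, IFN-γ and type I IFN lists did not overlap either, with HLA→B6 higher. The naive genes share cells, so they are not independent of each other.

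Other genes with the smallest p among the lower ones did not pass over all genes either. Bcl2, which protects from apoptosis, was at 1069, 678, 534, 801 and 861 CPM in B6→B6 mice 1 to 5 and 434, 372 and 319.7 CPM in HLA→B6 mice 1 to 3 (log2 fold change -1.0 ± 0.25, edgeR adjusted p = 0.103). Its groups did not overlap. Selenop, a selenium carrier, had a log2 fold change of -1.18 ± 0.28 (adjusted p = 0.0846 by edgeR) and Tagap, a GTPase-activating protein of activated T cells, one of -1.40 ± 0.37 (adjusted p = 0.114 by edgeR). Both passed without cluster 7, at edgeR adjusted p = 0.0363 and 0.0363. Cytip, a partner of cytohesin in adhesion, had a log2 fold change of -0.90 ± 0.23 (adjusted p = 0.114 by edgeR), and its 5 B6→B6 grafts, between 475 and 520.2 CPM, all lay above the HLA→B6 grafts, between 241 and 308 CPM. Such a gap with all HLA→B6 grafts lower was seen in 2.75% of the tested genes.

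No gene of the IFN-γ and type I IFN lists passed the threshold between the groups. Ly6a, described above as interferon-responsive, is on neither list. Of 26 genes of the IFN-γ response 16 were tested, edgeR and DESeq2 both called 0, 3 were higher at an unadjusted p under 0.05, and all 16 fold changes were above 0 (47.6% over all tested genes), with a median log2 fold change of 0.33 against -0.02 over all tested genes and values from 0.11 to 0.85. Among them B2m, the light chain of MHC I, had 0.21 ± 0.16 on the log2 scale. Of 9 tested type I IFN genes 7 were above 0 (median 0.36) and edgeR and DESeq2 again called 0, with 3 higher at an unadjusted p under 0.05. Ifi27l2a had the smallest adjusted p of these (0.202 by edgeR, log2 fold change 0.84 ± 0.25), and it passed without B6→B6 mouse 4. The summed IFN-γ list ran from 16377 to 18605 CPM in HLA→B6 and from 9346 to 15544 CPM in B6→B6. The type I IFN list ran from 3556 to 4099 and from 2380 to 3229 CPM, so neither sum overlapped between the groups. Genes of T cell identity such as Cd3e, Trac and Lck did not pass in any of 15 cases by edgeR or DESeq2, with 1 higher at an unadjusted p under 0.05, and centred on 0.02, and Cd4 itself, which the rule used, was at 0.16 ± 0.20 on the log2 scale.

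The lists for memory and effector genes (18 tested, median log2 fold change 0.28), tissue residency (8 tested, 0.58), T cell receptor signalling (18 tested, 0.10), chemokine receptors and homing (13 tested, -0.28), immediate early and stress genes (13 tested, -0.32) and the cell cycle (5 tested, -0.28) held no gene past the threshold of edgeR or DESeq2. At an unadjusted p under 0.05 they held 4, 3, 3, 1, 0 and 2 higher and 0, 1, 0, 0, 3 and 0 lower genes. Cxcr3, the receptor that draws Th1 cells to IFN-γ-induced chemokines, had a log2 fold change of 1.12 ± 0.30 and edgeR adjusted p = 0.114, with 116, 207, 154, 141 and 178 CPM in B6→B6 mice 1 to 5 and 486, 319 and 183 CPM in HLA→B6 mice 1 to 3. HLA→B6 mouse 3 lay among the B6→B6 grafts. Markers of other cell types were summed as well. B cell genes summed to 119 to 1224 CPM in B6→B6 and 276 to 415 in HLA→B6, myeloid genes to 215 to 708 and 636 to 1113, and structural cell genes to 66.6 to 1651 and 205 to 549.8, against 10612 to 14756 and 13666 to 15979 for T cell identity. Dendritic cell genes summed to 0 to 671 and 37.1 to 203 CPM, genes of NKT and innate lymphoid cells to 346 to 1104 and 445 to 930.1, and γδ T cell genes to 0 to 70.9 and 37.1 to 70.7. The highest B cell, structural and dendritic cell sums were those of B6→B6 mouse 4, and red cell and platelet genes reached 4989.7 CPM in HLA→B6 mouse 3. Their part in the results was not tested.

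**Figure D3:**
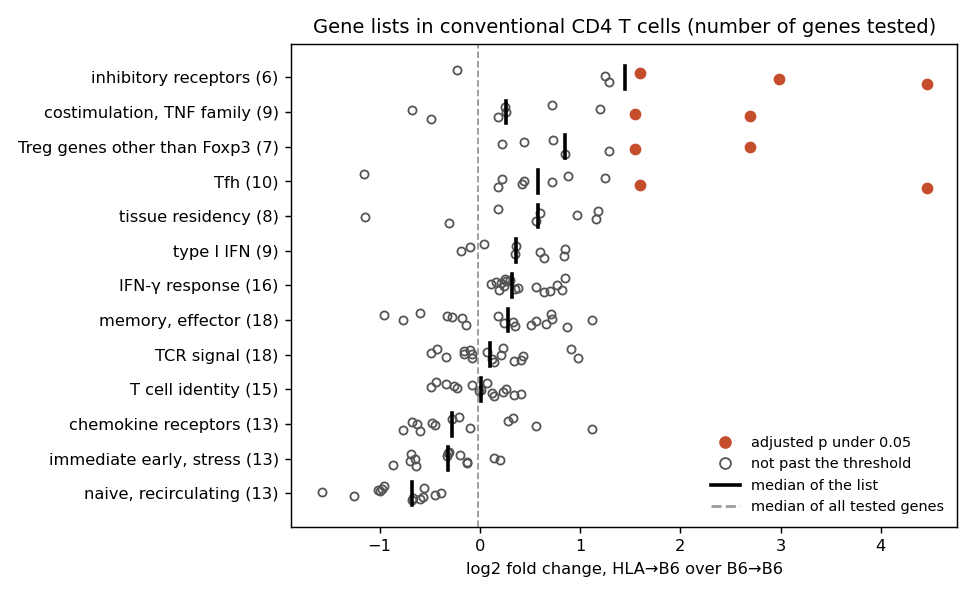
Log2 fold change between HLA→B6 and B6→B6 (x axis) of the tested genes of 13 lists, 1 circle per gene, filled where adjusted p is under 0.05, with each list's median as a bar and the median of all 1925 tested genes as a dashed line. The naive and recirculating genes all lie left of that line, the IFN-γ genes all right of it, and the filled circles sit among inhibitory, TNF family, Treg and Tfh lists, which share genes.

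Most cytokines and lineage factors of the helper programs named here were found in few cells, with Gata3 as the exception. Of the Tfh list 10 genes were tested and 2 rose, Pdcd1 and Tox, both also on the inhibitory list (0.571% over all tested genes). Il21, the Tfh cytokine that acts on B cells, was found in 1, 0, 0, 0 and 0 cells of B6→B6 mice 1 to 5 and 11, 1 and 2 cells of HLA→B6 mice 1 to 3, or 1 of 229 and 14 of 334. Bcl6, the Tfh factor, was in 0 of 229 and 5 of 334 cells, and Cxcr5 in 3 and 7. Ifng was in 9 and 24 cells and Tbx21 (T-bet) in 5 and 11. Il17a, the Th17 cytokine, was in 4 B6→B6 cells, all from mice 2 and 3, and in 1 HLA→B6 cell. Gata3, the Th2 factor, was in 19.2% and 20.1% of cells (log2 fold change -0.09 ± 0.27), while Il4 had 1 cell in all and Il5 none of 563. Il10 was in 0 of 229 B6→B6 cells and in 10 of 334 HLA→B6 cells, 5 each in mice 1 and 2. The lists of Th1 (5 tested), Th2 (1), Th17 (5) and cytotoxic genes (4) held 0 called by edgeR or DESeq2 and 2, 0, 2 and 2 higher at an unadjusted p under 0.05. Without cluster 7, edgeR called 1 gene of the Th1 list and 1 of the cytotoxic list higher in HLA→B6. These 2 lists share genes, so both calls can be the same gene. None of the single genes above but Gata3 had enough counts for the test across genes. Gzmk, the granzyme most common in the cells, had 3.06% and 6.29% of cells and did not pass (log2 fold change 2.20 ± 0.80, edgeR adjusted p = 0.402).

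One gene of a secreted protein, named after its values were seen, was Sostdc1, a BMP and Wnt antagonist. It was found in 0, 0, 2, 0 and 0 cells of B6→B6 mice 1 to 5 and 24, 7 and 2 cells of HLA→B6 mice 1 to 3. Both B6→B6 cells came from mouse 3, and the gene was in 0.0437% of the 2288 CD8 T cells and in 0% of B cells. Spp1, which encodes osteopontin, was found in 1, 0, 2, 2 and 0 cells of B6→B6 mice 1 to 5 and 17, 12 and 3 cells of HLA→B6 mice 1 to 3, against 3.72% of CD8 T cells. Neither passed in the group comparison (log2 fold change 2.37 ± 0.75 and 1.90 ± 0.82, edgeR adjusted p = 0.263 and 0.507), B6→B6 mouse 3 being within the HLA→B6 range in both.

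The rule cannot remove regulatory T (Treg) cells in which no Foxp3 UMI was counted. Of the 85 T cells with Foxp3 and no Cd8, 88.2% had a UMI of the Treg genes Ikzf2 (Helios) or Il2ra (CD25) and 24.7% a UMI of Cd4. Among the conventional CD4 T cells, 21 of 229 in B6→B6 (9.17%) and 81 of 334 in HLA→B6 (24.3%) had a UMI of Ikzf2 or Il2ra. Ikzf2 stood at 173, 7.98, 83.1, 292 and 59.3 CPM in B6→B6 mice 1 to 5 and 326, 115 and 206 CPM in HLA→B6 mice 1 to 3, which overlapped (log2 fold change 0.85 ± 0.54, edgeR adjusted p = 0.654). With those cells left out, an alternative added after the data were seen, edgeR called 2 of 1622 genes, Pdcd1 (log2 fold change 4.81, adjusted p = 1.12e-05) and Tnfrsf4 (2.02, adjusted p = 0.0253). Lag3 and Eea1 then fell under the count filter, and the other 7 genes kept log2 fold changes between 0.96 and 1.60 without passing, Hif1a for example at adjusted p = 0.0927 by edgeR. Of the 7 tested Treg genes other than Foxp3, 2 rose in the main comparison, Tnfrsf4 and Tnfrsf18 (0.571% over all tested genes). All 7 fold changes were above 0 (median 0.85), against 47.6% and a median of -0.02 over all tested genes. The part of such cells in the differences was not tested beyond this.

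Within the HLA→B6 grafts, Lag3, Tox, Tnfrsf4, Tnfrsf18 and Hif1a were more common in cells with a Pdcd1 UMI than in those without, and genes of naive cells less common. A Pdcd1 UMI was found in 131 of 334 cells, whose median depth was 1473 UMIs against 1738 in the other 203. Among the 113 and 179 of these with at least 1000 UMIs, read at that depth, Lag3 was in 34.9% against 8.93% of cells with and without Pdcd1, Tox in 39.1% against 8.23%, Tnfrsf4 in 51.9% against 19.1%, Tnfrsf18 in 45.3% against 21.2% and Hif1a in 34.9% against 8.28%. Klf2 was in 11.6% against 53.3%, Ccr7 in 3.58% against 20.1% and Lef1 in 9.35% against 29.8%. Each of these held in all 3 mice. The T cell genes Cd3e and Trac were themselves in 81% against 58.2% and 80.5% against 66.6%, higher with Pdcd1 in all 3 mice, and Cd40lg was in 8.28% against 8.44%, higher in 2 of 3. Cells do not stand for separate animals, Pdcd1 chose the groups, and only 7 of its cells came from HLA→B6 mouse 3, so these are given with no test. Ctla4 was in 23.6% against 5.11% and Ikzf2 in 23.5% against 9.94%, both higher with Pdcd1 in all 3 mice.

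**Figure D4:**
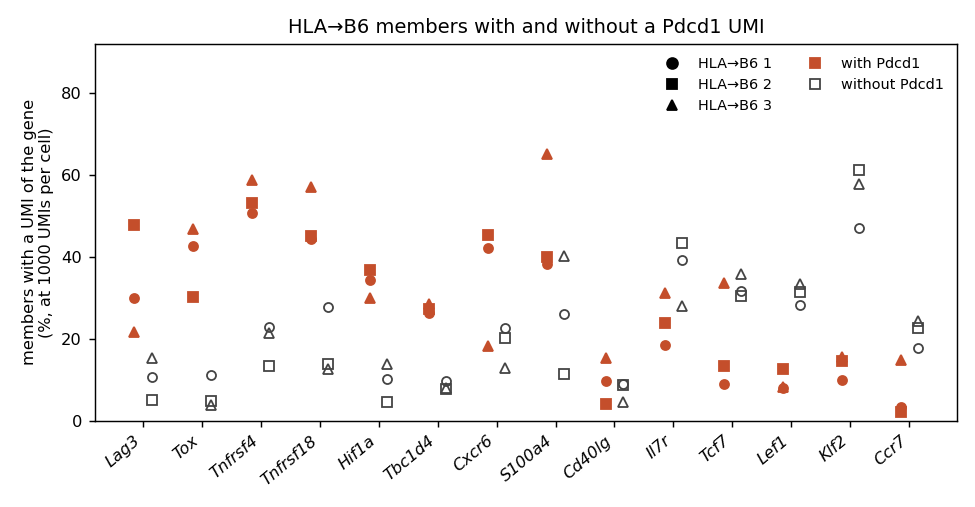
Share of conventional CD4 T cells of the 3 HLA→B6 mice with a UMI of each gene (%, y axis, read at 1000 UMIs per cell), for cells with (filled) and without (open) a Pdcd1 UMI. Klf2, Lef1 and Ccr7 are lower in cells with Pdcd1 in each mouse, and the genes from Lag3 to Tbc1d4 are higher. HLA→B6 mouse 3 had 7 cells with Pdcd1.

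The nearest other T cells were the 2288 with Cd8a or Cd8b1 and neither Cd4 nor Foxp3, called CD8 T cells here, compared within each mouse. Conventional CD4 T cells carried more of the helper surface genes and less of the killer genes. Apart from the 4 genes of the rule, edgeR with the mouse as a block called 320 of 2472 genes (12.9%), 141 higher (5.7% of those tested) and 179 lower in CD4. With scaling by total count in place of TMM the median of all genes rose from 0.00285 to 0.19 on the log2 scale and the split became 311 higher and 99 lower, so directions are relative to the TMM scale. Of the 7 tested helper lineage genes, 6 were higher and 1 lower. Cd40lg, the CD40 ligand that B cells and dendritic cells need as help, stood at 126 ± 36.4 CPM in conventional CD4 and 3.80 ± 4.09 CPM in CD8 T cells (SD, n = 8 mice), and it was higher in CD4 in 8 of 8 mice (log2 fold change 4.85 ± 0.36 (SE), adjusted p = 3.09e-13 by edgeR). Izumo1r, the folate receptor 4 of anergic and regulatory CD4 cells, stood at 254 ± 138 CPM in conventional CD4 and 24.7 ± 14.9 CPM in CD8 T cells (SD, n = 8 mice), also in 8 of 8 mice, a direction found in every mouse for 2.75% of the tested genes (log2 fold change 3.09 ± 0.21). Tnfsf8 (CD30 ligand), Icos, the metabolic enzyme gene Ass1, the nuclear receptor gene Rora, S100a4, Ly6a, Tspan32 and Smco4 were the other genes with the largest rises, with log2 fold changes from 1.43 to 2.22. The 1 lower helper list gene was Runx3, the factor of the CD8 fate (log2 fold change -0.79 ± 0.19).

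Of the cytotoxic list, 7 of 7 tested genes were lower in CD4, with a median log2 fold change of -2.35 against 0.00285 over all tested genes (7.24% of which were called lower). Nkg7, a granule membrane protein of killer cells, stood at 514 ± 269 CPM in conventional CD4 and 2620.3 ± 1356 CPM in CD8 T cells (SD, n = 8 mice) (log2 fold change -2.35 ± 0.12 (SE), adjusted p = 5.08e-18 by edgeR). The chemokine gene Ccl5 stood at 1951 ± 2029.9 CPM in conventional CD4 and 13973 ± 6904 CPM in CD8 T cells (SD, n = 8 mice), lower in 8 of 8 mice (log2 fold change -3.27 ± 0.26). In conventional CD4 T cells it ranged widely between mice, and B6→B6 mouse 5, with 17 cells, was highest. Klrk1 (NKG2D), Klrd1 (CD94), Ly6c2, Ccl4, Plac8, Cd7, Cst7 and Tm6sf1 were the other largest falls, with log2 fold changes between -3.15 and -1.95. Of the T cell identity list 5 of 15 were higher in CD4 and none lower, among them Cd5, which damps receptor signals (log2 fold change 1.26 ± 0.15), and Cd28 (0.87 ± 0.11). The memory genes were split. S100a4, S100a11, Itgb1 and Cd44 were higher in CD4 and Ccl5, Il2rb and Ly6c2 lower, 8 higher and 3 lower of 17 tested. Of the naive list 3 of 13 were higher and 3 lower. Lag3 did not differ past the threshold between the 2 types (log2 fold change -0.08 ± 0.22, edgeR adjusted p = 0.914), and Pdcd1 had too few counts for this test. Without cluster 7, which holds 564 of the 778 CD8 T cells of B6→B6 mouse 4, edgeR called 371 genes. Without the mouse as a block it called 121.

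**Figure D5:**
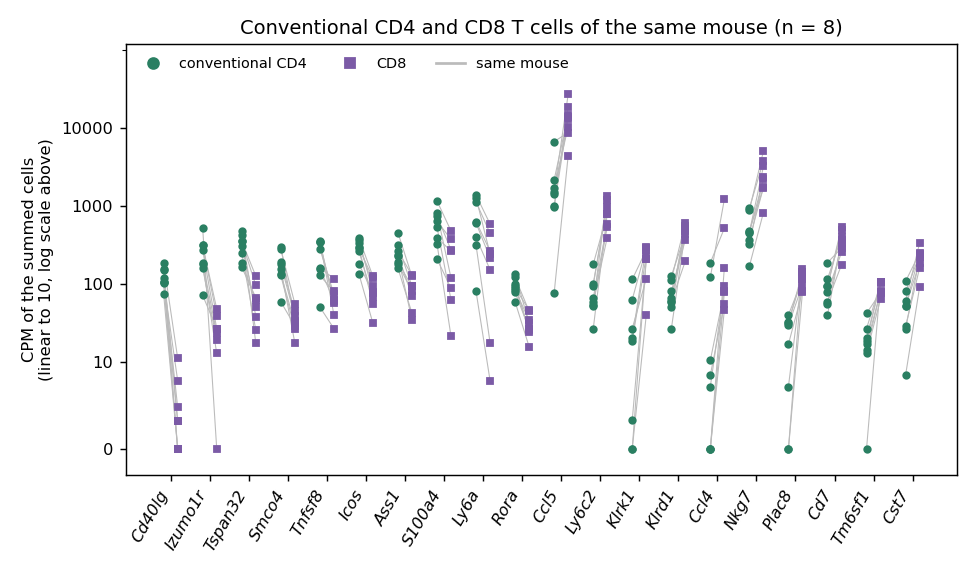
CPM (y axis, linear to 10 and logarithmic above) of the 10 genes most raised and the 10 most lowered in conventional CD4 (circles) against CD8 T cells (squares), with a line for each of 8 mice. From Cd40lg to Rora the CD4 value is the higher in every mouse, and from Ccl5 to Cst7 the lower.

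Most of the 11 genes could also be followed in CD8 T cells of the same grafts. The HLA→B6 over B6→B6 log2 fold change of Pdcd1 was 4.46 ± 0.44 in conventional CD4 and 3.59 ± 0.50 in CD8 T cells, and that of Lag3 2.99 ± 0.41 in conventional CD4 and 4.04 ± 0.52 in CD8 T cells. Tox had 1.60 ± 0.35 in conventional CD4 and 1.29 ± 0.32 in CD8 T cells, Ly6a 1.53 ± 0.32 in conventional CD4 and 1.54 ± 0.51 in CD8 T cells and AW112010 1.40 ± 0.28 in conventional CD4 and 1.56 ± 0.33 in CD8 T cells. In CD8 T cells edgeR called Pdcd1, Lag3 and AW112010 (adjusted p = 0.00391, 0.00257 and 0.044) and not Tox or Ly6a (adjusted p = 0.0901 and 0.278 by edgeR). Tnfrsf18, with 0.70 ± 0.26 in CD8 T cells, and 2310001H17Rik, with 0.93 ± 0.26, did not pass there either (adjusted p = 0.366 and 0.152 by edgeR). Hif1a had 1.83 ± 0.31 in conventional CD4 and 0.11 ± 0.35 in CD8 T cells. The test of the difference between the 2 types did not pass for any of the 11, the smallest adjusted p being 0.182 by edgeR for Hif1a (unadjusted p = 0.00051 by edgeR). Tnfrsf4, Eea1 and Tbc1d4 were too low in CD8 T cells to be tested there, Tnfrsf4 at means of 13.6 and 23.5 CPM. These CD8 values include cluster 7, which held 564 of the 778 CD8 T cells of B6→B6 mouse 4. Between the groups in CD8 T cells, edgeR called 35 of 4125 genes with cluster 7 and 81 of 4012 without it. The CD8 calls given here are those with it.

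Over all genes, the group difference was unlike in the 2 types for 9 of 3574 genes (0.252%) by edgeR. Id2, an inhibitor of E proteins that effector and innate-like cells need, had a difference of -1.48 ± 0.23 on the log2 scale, CD4 minus CD8 (adjusted p = 0.000168 by edgeR). Its levels were 1475, 1078 and 882 CPM in HLA→B6 CD8 T cells against 268 to 677 CPM in B6→B6 ones, while in conventional CD4 T cells it had a log2 fold change of -0.33 ± 0.34. The memory and tissue genes S100a4 (-1.60 ± 0.33), S100a6 (-1.46 ± 0.31), Lgals3 (-2.37 ± 0.50) and Cxcr6 (-1.36 ± 0.30) likewise had the smaller difference in CD4. These 5 were 0.14% of the genes tested. Tnfsf8 (1.63 ± 0.35), Ramp1, a receptor activity modifier for CGRP (2.99 ± 0.51), Ldhb (3.43 ± 0.63) and the hemoglobin gene Hbb-bs (3.16 ± 0.44) were higher. Hbb-bs was above 0 in B6→B6 mouse 4, HLA→B6 mouse 3 and, in CD4 only, HLA→B6 mouse 2. Ramp1 and Ldhb were at 487 and 474 CPM in the CD8 T cells of B6→B6 mouse 4, which include cluster 7, against at most 80.1 and 35.6 CPM in the other B6→B6 mice. Hbb-bs and Ldhb no longer passed without cluster 7, where Hbb-bs turned to -0.69 and Ldhb had too few counts. The other 7 passed without cluster 7. The count was 15 without B6→B6 mouse 3 and 2 without HLA→B6 mouse 2, and DESeq2 called 1, Id2.

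Against the 85 Foxp3-positive T cells without Cd8, only B6→B6 mouse 3 and HLA→B6 mice 1 and 2 had at least 10 cells of each type (11, 31 and 15 with Foxp3). With 2 residual degrees of freedom, small p-values here rest mainly on the spread shared over genes, not on each gene's own. Conventional CD4 T cells had less of every tested gene of the Treg list. Apart from the rule genes, edgeR called 94 of 1165 genes (8.07%), 57 higher (4.89% of those tested) and 37 lower in conventional cells (38 and 47 with scaling by total count), and DESeq2 called 24. All 7 tested Treg genes other than Foxp3 were lower, with a median log2 fold change of -1.89 against -0.02 over all tested genes (3.18% called lower). Ikzf2 was at 99.3, 393 and 138 CPM in conventional and 1742, 2069 and 1834 CPM in Foxp3-positive cells of the 3 mice (log2 fold change -3.11 ± 0.26 (SE), adjusted p = 3.19e-29 by edgeR). Itgae (CD103, log2 fold change -3.65 ± 0.55), Ctla4 (-2.28 ± 0.30), Tnfrsf4 (-1.89 ± 0.23), Pglyrp1, Tnfrsf1b (the TNF receptor TNFR2), Glrx and the Ig gene Ighm were lower in all 3 mice. With so few mice, 18.9% of all tested genes were lower in every mouse. Of the tissue residency list 8 genes were tested, 1 was higher and 2 were lower, with a median log2 fold change of -0.51.

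Among the higher genes was Cxcr6 at 525, 772 and 831 CPM against 0, 49.9 and 49.6 CPM (log2 fold change 4.19 ± 0.54 (SE)), with 342 counts against 3. Spp1 had 392 counts in conventional cells and 0 in the 57 Foxp3-positive cells of these mice, which are fewer and hold less depth, so no test is given for it. Sostdc1 had 232 counts and 4, and for the same reason no test is given for it or for Cxcr6. Tnfsf8 (206 counts against 4), Igfbp4 (102 against 2) and Cd44 (117 against 4) were also higher in all 3 mice. They share this limit of few counts in Foxp3-positive cells, so no test is given for them either. Bcl2 (log2 fold change 1.79 ± 0.41) and the uncharacterised Gm12840 were higher in all 3 mice too. That direction was found in every mouse for 18.3% of the tested genes. Pdcd1 did not pass between the 2 types (log2 fold change 0.81 ± 0.35, edgeR adjusted p = 0.167). Without HLA→B6 mouse 2, edgeR called 0 genes (135 at an unadjusted p under 0.05), and without B6→B6 mouse 3 it called 62. With mice of at least 5 cells of each type, 6 in number, it called 56.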

How the data were processed

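The authors deposited UMI counts for each gene and cell, made from 10x 3′ libraries aligned to mm10 with Cell Ranger, corrected for free RNA with SoupX and merged in Seurat, with a table of cell annotations. Versions of these tools were not given in the sources used here. The deposited counts were whole numbers and came from 8 mice, with 0 unused columns of values. The HLA→B6 mice are numbered as in the table of cells, and the cell names carry other numbers for them. The authors' cell type labels were used, and 17 cells under 200 UMIs were kept. Depth and the counting intervals of shares (95%) cover counting error only, and a count of 0 was read as fewer than 3 counts.

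The members, the gene lists and the tests were chosen with earlier results of these data known. Counts were summed per mouse and T cell class where a mouse had at least 10 cells. Genes passed edgeR's filterByExpr (minimum count 10), were scaled by TMM and tested with edgeR 4.0.16 by its quasi-likelihood test in R 4.3.3 (limma 3.58.1 loaded), with Benjamini-Hochberg adjustment over all tested genes and a threshold of 0.05. The group comparison used the 8 mice, the comparisons between T cell classes had the mouse as a block, and the test of unlike group effects used the mouse and a group by class term. Cd4, Cd8a, Cd8b1 and Foxp3, which set the classes, were left out of the counts of called genes between classes. The SE printed with an edgeR log2 fold change is the absolute fold change over the square root of the test's F value, not a separate estimate. The p-values of the gene tests rest on the spread between mice, with each gene's spread drawn toward that shared over genes. Against Foxp3-positive cells, with 3 mice and 2 residual degrees of freedom, they rest mainly on the shared spread. Shares were compared by two-sided exact permutation tests over mice (scipy 1.17.1), and the fraction of cells in which a gene had a UMI was read after thinning each cell to 1000 UMIs, leaving out shallower cells. Genes were named by rule. In the group comparison these were the 8 largest rises and falls past the threshold without overlap, and the 5 smallest p in a direction with fewer than 5 called. Against CD8 T cells they were the 10, and against Foxp3-positive cells the 8, largest in each direction with 1 direction in every mouse. For unlike group effects they were the 5 smallest p. Genes of the fixed lists were added. A few genes, and 2 of the 3 shares compared, which rest on one of them, are not reported here. Ly6a, AW112010 and 2310001H17Rik in the group comparison, Sostdc1 and Spp1 there, Lgals3, S100a6, Tnfsf8 and Cxcr6 among unlike effects, Scgb1a1, the thymocyte genes, the genes read by Pdcd1 and the promoter motifs were chosen after their values were seen. Gene positions are from GENCODE vM21 on GRCm38 and promoters from RefSeq.

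The alternatives were DESeq2 1.42.0, total count scaling, no filter, stricter rules for cells, leaving out doublets (Scrublet in scanpy 1.11.5, expected rate 0.06) or shared barcodes, blocks, and leaving out each mouse. Of the conventional CD4 T cells 1 was called a doublet. Doublets were 1.19% of all cells, and 1 library gave no doublet threshold. The tests were tested on simulated data. Python 3.11.15 with numpy 2.4.6, pandas 2.3.3 and matplotlib 3.10.9 was used for the rest.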

Additional observations from a re-analysis of the deposited data

Results flagged for a closer look

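Of 20 values checked over the 5 B6→B6 mice, 2 held a mouse far from the others (gap over range above 0.71), and chance flags about 1 in 20 such groups. T cells with both Cd4 and Cd8 made up 18.4% of the T cells of B6→B6 mouse 4. The noncoding 2310001H17Rik stood at 59.3 CPM in the conventional CD4 T cells of B6→B6 mouse 5, the mouse with 17 such cells.

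The HLA→B6 against B6→B6 difference was unlike in conventional CD4 and CD8 T cells for 9 genes by edgeR's quasi-likelihood test of the group by class term. The log2 difference, CD4 minus CD8, was 2.99 for Ramp1, 3.43 for Ldhb, 3.16 for Hbb-bs and 1.63 for Tnfsf8. It was -2.37 for Lgals3, -1.60 for S100a4, -1.48 for Id2, -1.46 for S100a6 and -1.36 for Cxcr6.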

How the results depend on the processing

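The HLA→B6 minus B6→B6 difference in the share of conventional CD4 cells among T cells had no stable sign. It was -1.88 points as a share of T cells with a UMI of Cd4, Cd8a or Cd8b1, and ran from -1.16 to 2.54 when 1 mouse was left out. It was below 0 without B6→B6 mouse 4 (-0.790) and without HLA→B6 mouse 1 (-1.16).

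The count of genes called between the groups, 11, was 54 with no filter on low counts, 7 with at least 2 Cd4 UMIs, 7 with the libraries that share barcodes as a block, 2 without cells with Ikzf2 or Il2ra, and 3 to 21 with 1 mouse left out. Against CD8 T cells the 320 became 495 with no filter, 121 without the mouse as a block and 225 to 353 with 1 mouse left out. Against Foxp3-positive cells the 94 became 24 by DESeq2, 54 without the block, 56 with at least 5 cells per mouse, and 0 to 98 with 1 mouse left out, where 2 mice leave 1 residual degree of freedom. The 9 unlike group effects became 1 by DESeq2 and 2 to 15 with 1 mouse left out, and that of Hbb-bs turned to -0.69 without cluster 7. The causes of these shifts were not tested, beyond fewer mice or cells where these were left out. For single genes, 237 of the values recomputed in the group comparison kept side and direction, 65 lost the threshold and 8 gained it. Genes in few cells are limited by depth, with a median of 1735 UMIs per cell.

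Replicate numbers are shared by B6→B6 and HLA→B6 mice in the labels. Mice with the same number in the table of cells did not deviate together (correlations of -0.068, 0.131 and -0.141 over 1925 genes). The other numbers that the cell names give the HLA→B6 mice were not checked in this way. Neither numbering was read as a pairing. With the replicate number as a block, edgeR called 10 genes, 6 of them among the 11, and the share of conventional CD4 cells differed by -1.49 points.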
